A study of Mus musculus with 6 samples.

Results

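The phagocyte NADPH oxidase is the enzyme with which macrophages and neutrophils make superoxide, and 6 genes of its subunits were followed here: Cybb, Cyba, Ncf1, Ncf4, Rac1 and Rac2. They were picked by name, with earlier results of these data known, and they are 6 of the 55536 annotated genes in the data and of the 15376 that passed the filter on low counts. All 6 passed it. RNA had been sequenced from RAW264.7 cells, a mouse macrophage line, in 2 groups of 3 libraries: Ctrl cells given PBS (phosphate-buffered saline), called PBS libraries here, and Ti cells given titanium particles, the kind of debris that implants shed. Both groups come from the same line, whose strain the labels give as C57BL/6, although the line is generally described as derived from a BALB/c mouse tumour. Neither the dose and duration nor whether replicates were separate cultures is stated in the labels used here. The p-values then measure only the spread between these 6 libraries, which may be technical.

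In a resting phagocyte the oxidase is kept apart in pieces. Cybb encodes gp91phox (NOX2), the membrane protein that carries electrons from NADPH across to oxygen, and Cyba encodes p22phox, its membrane partner, which also offers the docking site for the cytosolic organizer. Ncf1 (p47phox) is that organizer, Ncf4 (p40phox) is a cytosolic subunit that binds a phosphoinositide of the phagosome, and the GTPases Rac1 and Rac2 complete the active complex when loaded with GTP. Activity is set mainly by phosphorylation and assembly of these proteins, which RNA levels do not measure.

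Rescaled estimated counts totalled 41164142 to 60242937 in the PBS libraries and 37686020 to 48543436 in the Ti libraries. Levels are given as CPM, the rescaled count divided by the normalised library size, and in the smallest library 3 counts were worth 0.0796 CPM, a floor for counting error only. The macrophage label held, and the 8 macrophage marker genes were all measured. They summed to between 5479 and 7265 CPM in the PBS libraries and between 6735 and 8579 CPM in the Ti ones. Lyz2 alone, at 3742 to 5359 CPM, made up most of each sum. Csf1r was uneven within groups, at 471 to 1597 CPM in PBS libraries and 144 to 1386 CPM in Ti ones. In Ti libraries Itgam was at 11.9 to 112 CPM and Fcgr1 at 11.9 to 65.3 CPM, while Adgre1, Cd68, Ptprc and Lyz2 varied less. The 5 neutrophil, 6 lymphocyte and 6 fibroblast and epithelial markers summed to at most 0.0535 CPM per list in any library, and 13 of these 17 genes were at 0 in all 6. The edgeR quasi-likelihood test, with p-values adjusted over all genes at 0.05, called 4 genes, 0.026% of those tested, and 0 of the 4 encode an oxidase subunit. A fit that adds the replicate number as a block called 0.

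The deposited values are per transcript, and the annotation holds 28 transcripts of the 6 genes, 2 of them at 0 in every library. In 4 genes a second transcript differs from the main one in a short internal stretch of RNA, with further differences at the transcript ends in Rac1, Rac2 and Cyba. These stretches are shown because the shares of the transcripts with and without them are given further on. Each is written 5′ to 3′ on the transcript strand, with the stretch in capitals and 20 bases of the neighbouring sequence in lower case, as read from the GENCODE vM21 transcripts (GRCm38).
Rac1-202: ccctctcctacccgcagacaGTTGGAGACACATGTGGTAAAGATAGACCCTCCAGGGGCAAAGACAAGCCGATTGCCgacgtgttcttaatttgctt
Cyba-201: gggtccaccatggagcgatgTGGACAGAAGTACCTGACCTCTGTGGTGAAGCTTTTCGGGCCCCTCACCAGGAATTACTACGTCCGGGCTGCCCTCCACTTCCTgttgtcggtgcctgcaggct
Ncf1-201: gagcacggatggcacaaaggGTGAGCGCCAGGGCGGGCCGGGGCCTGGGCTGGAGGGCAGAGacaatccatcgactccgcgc
Rac2-202: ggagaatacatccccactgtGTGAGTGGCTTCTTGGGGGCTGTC

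The Rac1 stretch is a whole coding exon of 57 bases (chr5:143509597-143509653, minus strand) that Rac1-202 has and Rac1-201 lacks. It is the alternative exon of the splice form known as Rac1b, whose product exchanges nucleotide faster than Rac1. The Cyba stretch is a coding exon of 84 bases (chr8:122426936-122427019, minus strand) that Cyba-201 has and Cyba-202 skips. The Ncf1 stretch is 42 coding bases (chr5:134221988-134222029, minus strand) by which an exon of Ncf1-201 is longer than that of Ncf1-202. Each of these 3 lengths is a multiple of 3 and keeps the reading frame. The Rac2 stretch is the start of 54 bases (chr15:78570678-78570731, minus strand) that Rac2-202 keeps after the second exon. Its annotated fate is nonsense-mediated decay, and the reading frame ends at a TGA inside the stretch. For Rac2 24 bases of the stretch are shown.

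None of the 6 genes changed with Ti particles by the test over all genes, nor did any pass in DESeq2 or in limma's voom. The lowest edgeR adjusted p was 0.707, for Ncf4. Of the 6 log2 fold changes 3 were positive and 3 negative, with a median of -0.036, against 0.0053 over all tested genes. By the unadjusted p-value 1 of the 6 was under 0.05, against 6.76% of all tested genes. It was higher with Ti, against 3.42% of all tested genes, and 0 were lower, against 3.34%. In 1 of the 6 every Ti library lay above every PBS library, against 6.63% of all tested genes, and in 0 every one lay below, against 6.71%. With 6 genes, 1 of either kind is not a result about the set. How narrowly each gene was bounded differed greatly, from Cyba, whose 95% interval reached from 0.875-fold to 1.16-fold, to Cybb, whose interval reached from 0.345-fold to 2.12-fold.

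**Figure D1:**
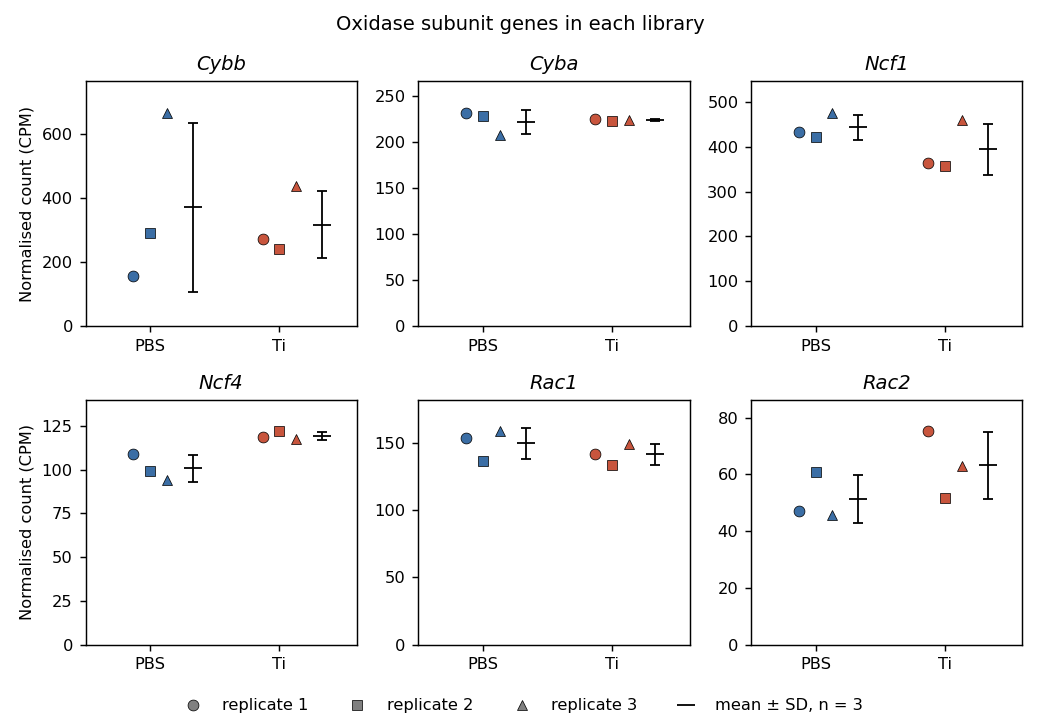
Normalised counts (CPM, vertical axes from 0, a separate scale for each gene) of the 6 subunit genes in the 3 PBS and 3 Ti libraries. Points are libraries with the shape giving the replicate number, and the bars at the right of each group are mean ± SD. Ncf4 is the only one of the 6 whose groups do not overlap, and Cybb is highest in replicate 3 of both groups.

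Of the membrane pair, Cybb was uneven among libraries of the same group. Cybb (ENSMUSG00000015340, GRCm38 chromosome X, 9435252 to 9487771, minus strand) was measured at 156, 290.2 and 667 CPM in PBS libraries 1 to 3. In Ti libraries 1 to 3 it was at 274, 241 and 437 CPM. The PBS libraries thus held both the lowest and the highest value, and the Ti libraries lay inside their range. This gave a log2 fold change of -0.23 ± 0.54 (SE, n = 3 per group; edgeR adjusted p = 0.981). The sign rested on PBS replicate 3, without which the log2 fold change was 0.51. It was 0.21 without the libraries numbered 3 of both groups, an alternative chosen after seeing the data, and -0.028 in the fit with the block. The SD of its log2 CPM within groups was 0.81, larger than that of 91.6% of the 9716 genes with a mean of at least 5 CPM.

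Both libraries numbered 3 had more Cybb than any of the other 4. The same held for Ncf1, so for 2 of the 6 genes, and for 13.8% of the 9716 genes. This split was chosen after the values were seen. Cybb-201, the full-length coding transcript, carried 97.1% to 98.8% of the gene's rescaled count in each library, so the spread was that of 1 transcript. The genes whose levels over the 6 libraries were most like those of Cybb were Hpgds, the haematopoietic prostaglandin D synthase, and 4632404H12Rik. The root mean square difference of their centred log2 CPM from that of Cybb was 0.156 and 0.198, against a median of 0.707 over 9715 genes. Here and for the other members the 2 genes were picked as the closest, so a value below the median was fixed by the choice. Hpgds was at 7.59, 14.6 and 30.0 CPM in PBS libraries 1 to 3 and 12.3, 14.2 and 25.4 CPM in Ti libraries 1 to 3, low and high in nearly the same order.

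**Figure D2:**
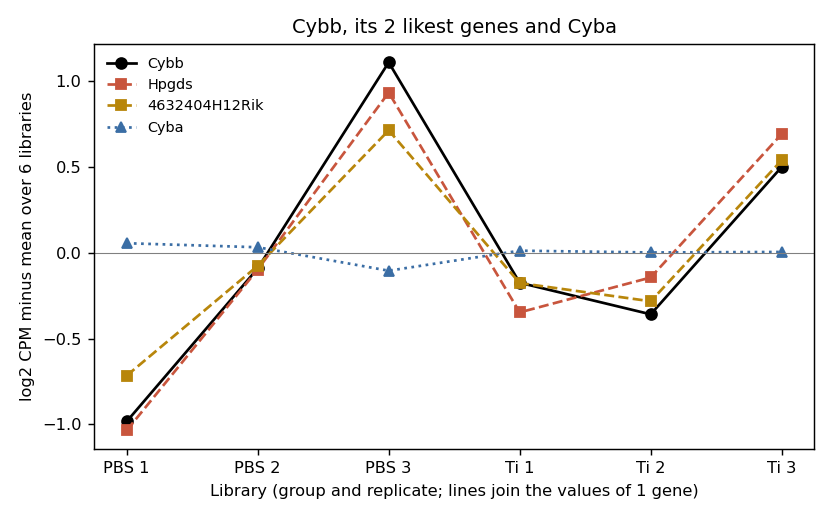
log2 CPM of Cybb, of the 2 genes most like it (Hpgds and 4632404H12Rik) and of Cyba in each library, each gene centred on its mean over the 6 libraries (vertical axis, log2 units). Cybb and the genes like it are lowest in PBS replicate 1 and high in replicate 3 of both groups, while Cyba stays near its mean.

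Cyba, the partner of Cybb, was the steadiest of the 6. Cyba (ENSMUSG00000006519, chromosome 8, 122424776 to 122432930, minus strand) was measured at 232, 228 and 207 CPM in PBS libraries 1 to 3 and 225, 223 and 224 CPM in Ti libraries 1 to 3. All Ti values lay within the PBS range. This gave a log2 fold change of 0.010 ± 0.083 (SE, n = 3 per group; edgeR adjusted p = 0.998) and a 95% interval from -0.19 to 0.21. Its within-group SD, 0.061, was smaller than that of all but 3.47% of the 9716 genes. The genes with the most similar levels over the 6 libraries were Ebpl and Snrpa, at root mean square differences of 0.0175 and 0.0204 against a median of 0.228. Both of these genes were nearly flat as well.

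The cytosolic subunits Ncf1 and Ncf4 differed in the sign of their fold changes. Ncf4 (ENSMUSG00000071715, chromosome 15, 78244801 to 78262580, plus strand) was measured at 109, 99.1 and 94.2 CPM in PBS libraries 1 to 3. In Ti libraries 1 to 3 it was at 119, 122 and 118 CPM, so every Ti value lay above every PBS value. The means were 101 ± 7.56 CPM for PBS and 119 ± 2.24 CPM for Ti (SD, n = 3 per group). The log2 fold change was 0.25 ± 0.094 (SE). The unadjusted edgeR p was 0.0390 and the adjusted p 0.707, so the difference did not pass over all genes. Over all alternatives tried the log2 fold change stayed between 0.20 and 0.30 and the lowest adjusted p was 0.435. The genes most like Ncf4 in level were Srprb, a subunit of the signal recognition particle receptor, and Ccdc71l, at root mean square differences of 0.0235 and 0.0334 against a median of 0.268.

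Ncf1 (ENSMUSG00000015950, chromosome 5, 134220053 to 134229625, minus strand) was measured at 434, 422 and 476 CPM in PBS libraries 1 to 3 and 364, 358 and 461 CPM in Ti libraries 1 to 3. Ti libraries 1 and 2 lay below all PBS libraries and Ti library 3 among them. The log2 fold change was -0.17 ± 0.13 (SE, n = 3 per group), with an unadjusted edgeR p of 0.225 and an adjusted p of 0.888. It was -0.29 without Ti replicate 3 (edgeR adjusted p = 0.559) and -0.11 without Ti replicate 2 (edgeR adjusted p = 0.953). Within each replicate number Ncf1 was lower with Ti, by log2 ratios of -0.25, -0.24 and -0.046 for numbers 1, 2 and 3, while Ncf4 was higher, by 0.12, 0.30 and 0.32. In the fit with the block the edgeR adjusted p was 0.555 for Ncf1 and 0.508 for Ncf4. The genes most like Ncf1 in level were Zfp810 and Heatr5a, at root mean square differences of 0.0246 and 0.0404 against a median of 0.277.

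Of the GTPases, Rac1 is made in most cell types and Rac2 mainly in blood cells. Rac1 (ENSMUSG00000001847, chromosome 5, 143503634 to 143528036, minus strand) was measured at 154, 137 and 158 CPM in PBS libraries 1 to 3 and 141, 134 and 149 CPM in Ti libraries 1 to 3. The groups overlapped. The difference was a log2 fold change of -0.082 ± 0.098 (SE, n = 3 per group; edgeR adjusted p = 0.951) with a 95% interval from -0.32 to 0.16. It was -0.14 without PBS replicate 2, -0.035 without PBS replicate 3 and -0.046 without Ti replicate 2. An annotated gene on the other strand, Daglb, overlaps Rac1 and was at 10.3 to 29.1 CPM. Whether the counting used strand is not stated, so reads of the 2 genes cannot be told apart where they overlap. The same holds for Ncf1 and Gtf2ird2, which was at 0.648 to 4.05 CPM. Sde2 and Exoc8 were most like Rac1 in level, at root mean square differences of 0.0116 and 0.0235 against a median of 0.242.

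Rac2 (ENSMUSG00000033220, chromosome 15, 78559167 to 78572783, minus strand) was measured at 47.1, 60.9 and 45.7 CPM in PBS libraries 1 to 3 and 75.2, 51.6 and 62.9 CPM in Ti libraries 1 to 3. The highest values were those of Ti libraries 1 and 3, and Ti library 2 lay among the PBS libraries. The log2 fold change, 0.30 ± 0.19 (SE, n = 3 per group; edgeR adjusted p = 0.849), was the largest of the 6, with a 95% interval from -0.15 to 0.76. It ranged from 0.16 without Ti replicate 1 to 0.45 without PBS replicate 2. Entr1 and Kif20b were most like Rac2 in level, at root mean square differences of 0.0585 and 0.0807 against a median of 0.342.

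Levels can be compared between genes only per length, here as CPM per kb of exon, summed over a gene's transcripts. Cyba had the highest level, 281 to 315 CPM per kb over the 6 libraries, and Ncf1 came next with 135 to 183. Every library of Cyba lay above every one of Ncf1, and every one of Ncf1 lay above every one of Ncf4, which had 70.7 to 90.7. Cybb had 38.0 to 149 CPM per kb, overlapping Ncf1, Ncf4 and Rac1 (55.2 to 67.0), so its place in the order was not fixed. The overlap with Ncf1 came from PBS library 3, where Cybb was at 149 and Ncf1 at 183 CPM per kb. Rac2 had the lowest level, 17.2 to 34.7 CPM per kb, below every value of Rac1.

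**Figure D3:**
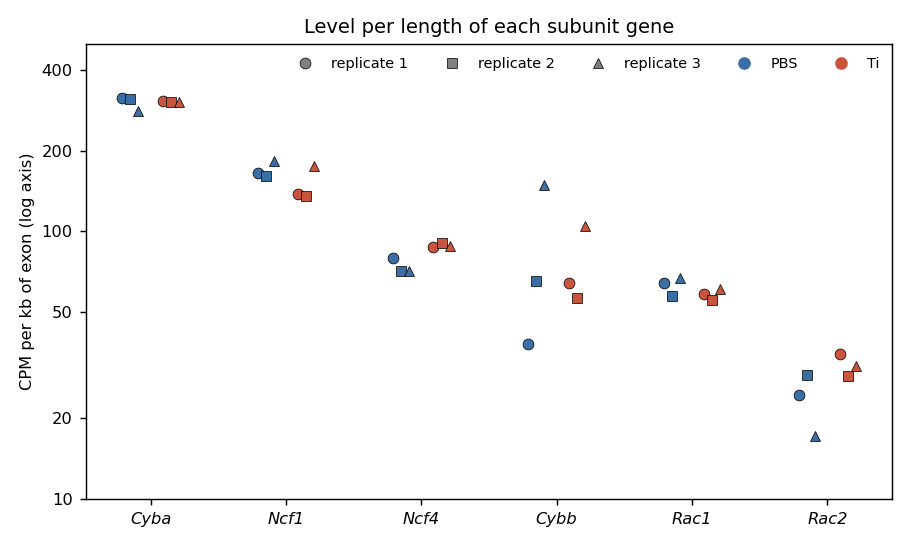
Level of each subunit gene per kb of exon (CPM per kb, log axis) in each library, with genes ordered by their median over the 6 libraries. Blue points are PBS and red points Ti, and the shape gives the replicate number. Cyba is clear of the rest, Ncf1 is clear of all but Cybb, whose highest library reaches into its range, and Rac2 is lowest.

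3 ratios of these levels were compared between groups, each over libraries with a two-sided exact permutation test that cannot go below 0.1 with 3 against 3. The ratio of Cyba to Cybb was 8.28, 4.75 and 1.89 in PBS libraries 1 to 3 and 4.79, 5.41 and 2.91 in Ti libraries 1 to 3, with an exact permutation p of 0.9 (0.9 adjusted over the 3 ratios). The ratio of these RNA levels thus varied widely within a group, and it was lowest in replicate 3 of both groups. The ratio of Ncf4 to Ncf1 was 0.484, 0.442 and 0.386 in the PBS libraries and 0.631, 0.669 and 0.500 in the Ti ones. Each Ti value lay above each PBS value, a log2 difference of 0.45 with an exact permutation p of 0.1 (0.15 adjusted), the smallest the design allows. With protein-coding transcripts alone the log2 difference was 0.40 and the groups overlapped (exact permutation p = 0.2).

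The ratio of Rac2 to Rac1 was 0.384, 0.506 and 0.257 in the PBS libraries and 0.598, 0.521 and 0.516 in the Ti ones. The groups did not overlap by a narrow margin, with a log2 difference of 0.56 and an exact permutation p of 0.1 (0.15 adjusted). The difference was 0.30 without PBS replicate 3 and 0.30 to 0.79 over all fits with 1 library left out. It was 0.38 both with protein-coding transcripts alone and with counts not divided by length (exact permutation p = 0.3 for each). The short transcript Rac2-202, 459 bases long, took 14.9% to 47.4% of the Rac2 level per length but 2.58% to 12.1% of its rescaled count, so it moves the first scale far more.

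Each gene rested on 1 main transcript. Cybb-201, Cyba-201, Ncf1-202, Ncf4-201, Rac1-202 and Rac2-201 each carried at least 84.1% of their gene's rescaled count in every library. Of the 28 annotated transcripts 23 were tested, and 0 passed over all 41599 transcripts tested (lowest edgeR adjusted p 0.999989), where 3 transcripts, 0.00721%, passed. By the unadjusted p 1 of the 23 was under 0.05, against 4.29% of all transcripts tested. This was Ncf4-206, a transcript with a retained intron that held 1.30% to 3.31% of the Ncf4 count, with a log2 fold change of 0.95 ± 0.33 (SE) and an unadjusted edgeR p of 0.0288.

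The Rac1 count was credited unevenly to the annotated transcript with the 57-base exon and the one without it. Rac1-202, which holds the exon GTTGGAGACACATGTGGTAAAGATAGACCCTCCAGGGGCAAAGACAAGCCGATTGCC, took 88.1%, 91.5% and 92.5% of the Rac1 count in PBS libraries 1 to 3. It took 86.8%, 86.4% and 84.8% in Ti libraries 1 to 3, each below every PBS value. Rac1-201, which lacks the exon, took 11.5%, 8.27% and 7.18% in the PBS libraries and 12.9%, 13.2% and 14.9% in the Ti ones. The mean share of Rac1-201 was thus 4.68 percentage points higher with Ti, and 2.84 points higher when shares were taken of levels per length. The two-sided exact permutation p was 0.1, the smallest possible, and the comparison was chosen after the values were seen. Of the 8 transcripts of these genes that reached a share of 10% in some library, the 2 of Rac1, which mirror each other, had groups that did not overlap. Among all tested transcripts of that kind 9.23% did. In the test over transcripts the log2 fold change was 0.50 ± 0.26 (SE) for Rac1-201 and -0.18 ± 0.10 for Rac1-202, with an edgeR adjusted p of 0.999989 for each.

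What the Rac1 shares measure is limited by how the transcripts are annotated. Of the 2325 bases of Rac1-202 the 57 of the exon are the only ones that Rac1-201 lacks. Rac1-201 in turn is 4159 bases long and has 1891 bases that Rac1-202 lacks, nearly all in a longer last exon. An estimate that splits shared reads between them can therefore draw on the length of the end of the transcript as well as on the exon. The part of each in these shares was not tested. A share of Rac1-202 is therefore not a measure of how much Rac1 RNA holds the exon.

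**Figure D4:**
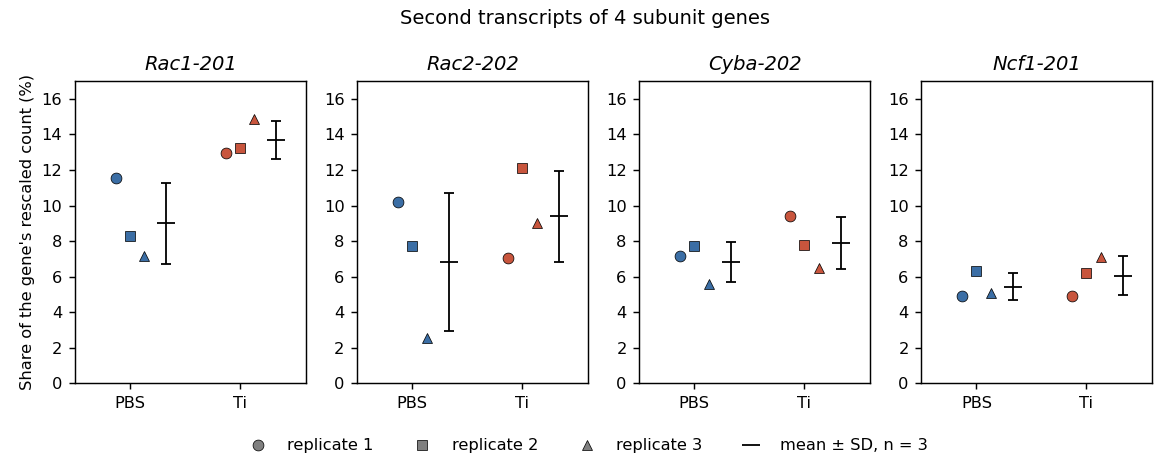
Share of each gene's rescaled count (%, vertical axis from 0) credited to its second transcript in each library: Rac1-201 without the 57-base exon, Rac2-202 with the early stop, Cyba-202 without the 84-base exon, and Ncf1-201 with 42 more bases. Points are libraries and bars mean ± SD (n = 3 per group). The groups do not overlap for Rac1-201 and overlap for the other transcripts shown.

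The other second transcripts overlapped between groups. Rac2-202, with the early TGA, took 10.2%, 7.70% and 2.58% of the Rac2 count in PBS libraries 1 to 3 and 7.07%, 12.1% and 9.01% in Ti libraries 1 to 3. The low value was that of PBS library 3 alone. Cyba-202, without the 84-base exon, took 5.58% to 7.72% in the PBS libraries and 6.48% to 9.42% in the Ti ones. Ncf1-201, with the 42-base extension, took 4.91% to 6.30% and 4.93% to 7.09%. Ncf1-205, annotated as protein-coding, took 6.70% and 6.94% in the libraries numbered 3 and 1.72% to 2.84% in the other 4, so it was high in the same libraries as Cybb in both groups.

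Genes that work with the oxidase were looked at in 6 lists. In edgeR none passed over all genes tested in either direction, while DESeq2, which called 292 genes over the whole table, called 2 of the named ones, Rap1b and Cebpa. Where a list gene is said below to have groups that did not overlap, the same held for 13.3% of all tested genes. Of 9 genes for subunits of other oxidases, such as the NOX1, NOX4 and DUOX enzymes, 0 passed the filter on low counts and 6 were at 0 in all libraries. Nox1, the catalytic subunit of a related oxidase, was at 0 in all PBS libraries and in Ti library 3. It was at 3.95 and 3.88 CPM in Ti libraries 1 and 2, and the filter left it out.

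The 10 genes for oxidase assembly and proton balance had log2 fold changes with a median of -0.032, 4 positive, 6 negative and 0 past the adjusted threshold. By the unadjusted p 2 were under 0.05 and higher, against 3.42% of all tested genes, and 1 lower, against 3.34%. With 10 genes, so few are not a result about the list. Rap1b, a small GTPase, was at 304, 292 and 282 CPM in PBS libraries 1 to 3 and 349, 365 and 357 CPM in Ti libraries 1 to 3. Its groups did not overlap, and the log2 fold change was 0.29 ± 0.077 (SE, n = 3 per group; edgeR adjusted p = 0.475). DESeq2 gave it an adjusted p of 0.0458. Hvcn1, the proton channel that balances the charge the oxidase moves, was near the floor, at 0.0781, 0.0997 and 0.192 CPM in PBS libraries and 0.472, 0.642 and 0.270 CPM in Ti libraries 1 to 3 (edgeR adjusted p = 0.495). Pik3c3, the kinase that makes the phosphoinositide bound by Ncf4, had a log2 fold change of -0.28 ± 0.095 with separate groups (edgeR adjusted p = 0.644). It was 0.87 with protein-coding transcripts alone. Prdx6 had a log2 fold change of -0.16 ± 0.15, which was -0.056 without PBS replicate 1 or Ti replicate 3, -0.26 without PBS replicate 2 and -0.047 without both libraries numbered 3.

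The 20 genes of the Rac GTPase cycle, exchange factors and inhibitors among them, had log2 fold changes with a median of 0.014, 10 positive, 10 negative and 0 past the threshold, and 0 were under 0.05 by the unadjusted p. The exchange factors with the smallest p-values were Tiam1 (0.54 ± 0.26), Arhgef7 (0.82 ± 0.45) and Prex1 (-0.78 ± 0.43), with Tiam2 at 1.39 ± 0.87 from at most 1.16 CPM. Values are log2 fold changes ± SE. Single libraries moved all 4: Tiam1 to 0.31 without Ti replicate 2, Arhgef7 to 0.47 and 1.26 without PBS replicates 1 and 3, Prex1 to -0.46 and -1.18 without Ti replicates 1 and 2, and Tiam2 to 0.87 without Ti replicate 1. The lowest edgeR adjusted p of the list was 0.796. Of 15 kinases upstream of the oxidase 13 were tested, with a median of -0.014, 5 positive, 8 negative and 0 past the threshold or under 0.05 by the unadjusted p. Irak4, a kinase of Toll-like receptor signalling, had -0.87 ± 0.36 and Mapk3, the ERK kinase gene whose groups did not overlap, had -0.21 ± 0.11. Without Ti replicate 1 Irak4 was at -1.31. In the fit with the block the unadjusted edgeR p was 0.0088 for Irak4 and 0.042 for Mapk3. The edgeR adjusted p there was 0.406 for Irak4 and 0.519 for Mapk3. How many of all tested genes were under 0.05 in that fit is not given, so these values are not a result about the list. Syk had 0.29 ± 0.17, which was 0.17 without Ti replicate 3 and 0.086 when both libraries numbered 3 were left out. Pik3cd had -0.26 ± 0.22, which was -0.14 and -0.44 without PBS replicates 1 and 3, -0.15 and -0.41 without Ti replicates 2 and 3, and -0.59 without both libraries numbered 3.

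Of 13 genes that remove superoxide and peroxide 12 were tested, with a median log2 fold change of -0.080, 4 positive, 8 negative and 0 past the threshold. By the unadjusted p 1 of the 12, Gpx4, was under 0.05 and lower, against 3.34% of all tested genes. With 12 genes, 1 is not a result about the list. Gpx4, which reduces lipid peroxides, was at 94.7, 95.7 and 97.2 CPM in PBS libraries 1 to 3 and 71.2, 84.3 and 73.2 CPM in Ti libraries 1 to 3, without overlap. The log2 fold change was -0.33 ± 0.10 (SE; edgeR adjusted p = 0.578). Gpx1 had -0.25 ± 0.13, Txnrd1, a thioredoxin reductase, 0.31 ± 0.13 and Sod2, the mitochondrial superoxide dismutase, 0.61 ± 0.41. That of Sod2 was 0.26 without PBS replicate 2 and 0.93 without PBS replicate 1. In the fit with the block the unadjusted edgeR p was also under 0.05 for Txnrd1, at 0.0071, and Gpx1, at 0.020. The edgeR adjusted p there was 0.387 for Txnrd1 and 0.468 for Gpx1. The share of all tested genes under 0.05 in that fit is not given, so these values are not a result about the list.

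Of 11 transcription factors tied to oxidase genes 5 had positive and 6 negative fold changes, with a median of -0.015 and 0 past the threshold. By the unadjusted p 1 was under 0.05 and higher, Cebpb, against 3.42% of all tested genes. Under 0.05 and lower were 2, Cebpa and Irf1, against 3.34%. With 11 genes, so few are not a result about the list. Cebpb was at 143, 147 and 132 CPM in PBS libraries 1 to 3 and 179, 172 and 189 CPM in Ti libraries 1 to 3. The log2 fold change was 0.35 ± 0.090 (SE, n = 3 per group; edgeR adjusted p = 0.458). Cebpa was at 67.4, 64.3 and 67.4 CPM in PBS libraries 1 to 3 and 52.0, 54.4 and 48.0 CPM in Ti libraries 1 to 3. Here the log2 fold change was -0.37 ± 0.099 (SE; edgeR adjusted p = 0.473). The groups of each did not overlap, and the 2 C/EBP genes lay on opposite sides of 0. Irf1 had -0.80 ± 0.27, also with separate groups, and Cebpe -0.43 ± 0.30. Groups did not overlap in this list for 1 gene higher with Ti, against 6.63% of all tested genes, and 3 lower, against 6.71%. With 11 genes these counts are not a result about the list either. Without PBS replicate 2 Irf1 was at -0.50, and Cebpe was at -0.20 without PBS replicate 3 and -0.68 without Ti replicate 3. DESeq2 gave Cebpa an adjusted p of 0.0458.

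**Figure D5:**
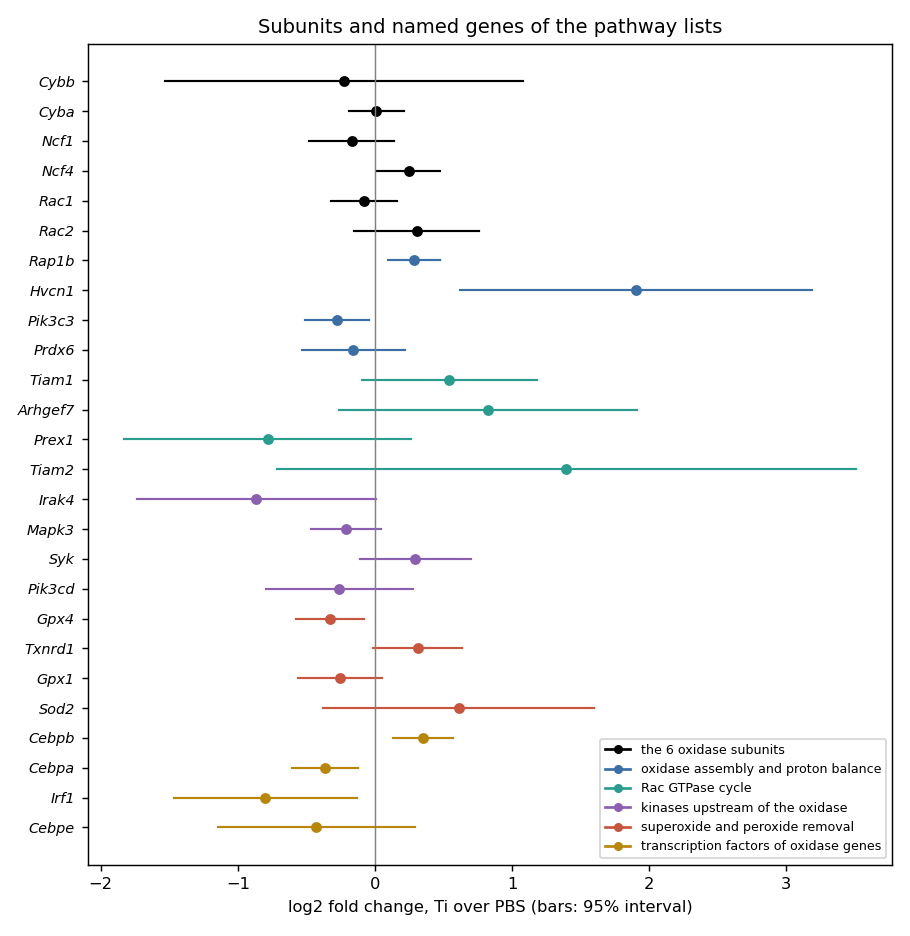
log2 fold changes, Ti over PBS (horizontal axis), of the 6 subunit genes and of the named genes of 5 lists, with bars for the 95% interval of each from the edgeR fit and colours for the list. Intervals are not adjusted for the number of genes. The bar of Cybb is the widest of the 6 subunits and that of Cyba the narrowest, and no gene shown passed an adjusted p of 0.05 in edgeR.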

How the data were processed

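The authors deposited estimated counts per transcript as whole numbers, 187351 rows for each of 6 libraries. Per the submitters' processing notes the reads went through HISAT2 and StringTie with build mm9; their versions, the strand setting and how transcripts were counted are not given there. The 141862 annotated rows match GENCODE vM21 (GRCm38), which gave names and coordinates. The 45489 assembled rows, without gene or position, were left out. They held from 36.9% (PBS library 3) to 51.2% (Ti library 1) of a library's deposited total. Whether some belong to the 6 genes cannot be told, so gene sums and transcript shares cover annotated rows only. Because deposited values grow with genomic span, each was multiplied by exon length over span, summed per gene and rounded, so a rescaled count is approximate and not a number of reads. The level per kb divides each transcript by its exon length before summing.

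Tests of genes and of transcripts used edgeR 4.0.16 in R 4.3.3 (filterByExpr, TMM scaling, quasi-likelihood), Benjamini-Hochberg over all features at 0.05. The gene test was also run on simulated counts, drawn without any pairing of libraries. That run therefore cannot show how the test does on paired libraries or on rescaled values. SE is the log2 fold change over the square root of F. Intervals at 95% use the total degrees of freedom of the fit, residual plus prior, where the prior part is shared between genes. Permutation tests used SciPy 1.17.1, and tables and plots Python 3.11.15, pandas 2.3.3 and matplotlib 3.10.9. Alternatives used DESeq2 1.42.0 and limma 3.58.1. Taken as Poisson counts, pairs of libraries within a group gave a chi-square of 148 to 497 per gene. Because rescaled counts are not reads, this value cannot be set against sampling noise. Deviations from the group means correlated across genes at 0.110, 0.144 and 0.266 between libraries of the same number, and at -0.170 to 0.0402 between others. As each of the 3 is over 0.1, replicate numbers count as pairing the libraries, on the evidence of the values and not the labels. The main tests and the permutation tests left this pairing out, and only the fit with the block used it.

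Named were the 6 members, up to 4 genes of each list with the smallest p, the 2 genes of at least 5 CPM most like each member (log2 of CPM plus 0.1), and transcripts with a share of at least 10%; Ncf1, Cyba and Ncf4 transcripts below it, Nox1 and the library split were named after their values were seen. The members and lists were chosen with earlier results of these data known. 1 gene is not reported here.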

Additional observations from a re-analysis of the deposited data

How the results depend on the processing

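Under 16 alternatives for each of the 6 members, 89 of 96 fold changes kept their sign and 0 passed an adjusted p of 0.05. The other 7 changed sign: Cybb to 0.16 with voom and quality weights, 0.51 without PBS replicate 3 and 0.21 without both libraries numbered 3, and Cyba to -0.0012 with no filter on low counts, -0.010 with voom, -0.034 without PBS replicate 3 and -0.033 without both libraries numbered 3. With 1 library left out the range was -0.59 to 0.51 for Cybb and -0.034 to 0.038 for Cyba. Of the list genes only the named ones were compared over the alternatives, and 1 changed sign, Pik3c3, to 0.87 with protein-coding transcripts alone. Hvcn1 and Tiam2 had no value with a mean of at least 50 counts, and Tiam2 none with protein-coding transcripts alone. The log2 difference in the ratio of Cyba to Cybb, 0.0057, ranged from -0.57 (without PBS replicate 3) to 0.49 (without PBS replicate 1) over the fits with 1 library left out, and was -0.085 and -0.17 without Ti replicates 1 and 2. The number of genes passing, 4, was 292 with DESeq2, 10 with voom, 0 with the replicate block, 0 without both libraries numbered 3, 2 with protein-coding transcripts alone, 1 without transcripts near 0 in one group and abundant in the other, and 1 to 13 with 1 library left out. The number of transcripts passing, 3, was 0 with a mean of at least 50 counts, 0 with the replicate block and 0 to 1 with 1 library left out. The block changed no call of a member. The difference in the mean share of Rac1-202 ranged from -6.00 to -3.82 percentage points with 1 library left out. The cause of these shifts was not tested. Read depth is unknown because rescaled counts are not reads, so the spread between 3 libraries sets what could be detected.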
